A study of Mus musculus with 6 samples.

Results

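The Krüppel-like factor (KLF) genes encode transcription factors that share zinc fingers at the C terminus and bind GC-rich and CACCC sequences in promoters. The N-terminal parts differ, so that some KLF proteins mainly activate genes, whereas others recruit the co-repressors CtBP or SIN3. Several of them set the balance of growth and differentiation in epithelia, and Klf10 and Klf11 were first known as early genes induced by TGF-β. Described here are 10 of the 18512 entries of the count table, namely Klf2, Klf3, Klf4, Klf5, Klf6, Klf7, Klf9, Klf10, Klf11 and Klf13. They were chosen by name from this family with their counts in these same libraries already known, so the calls below describe the fit and give no independent evidence about the family. The mouse annotation holds 17 genes with a KLF symbol, of which 5 more were in the table (Klf1, Klf8, Klf12, Klf15 and Klf16).

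RNA came from NMuMG, a line of mouse mammary gland epithelium that undergoes an epithelial-mesenchymal transition under TGF-β. The 3 groups of 2 libraries each were the DMSO vehicle (Control in the labels), TGFbeta, and TGFbeta_2APB, written here as DMSO, TGF-β and TGF-β+2APB. According to the methods, serum was withdrawn for 4 h before TGF-β, TGF-β was used at 5 ng/ml and 2APB, a modulator of store-operated calcium entry, at 50 uM. The results section of the paper gives 24 h of treatment, whereas its methods give 2APB for 24 h before TGF-β. 2APB without TGF-β was not analysed here, so an effect of 2APB by itself cannot be told apart from an effect on the TGF-β response.

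Between 71840570 and 79473182 counts were assigned per library, all values being even numbers. Of the epithelial markers, Krt8, Krt18, Krt19 and Cdh1 were abundant in DMSO, but Epcam had only 130 and 158 counts and Cldn7 6 and 2. The 4 hepatocyte markers Alb, Ttr, Apoa1 and Serpina1a together took 0.104% and 0.0942% of the DMSO counts, against 0.000803% and 0.000419% under TGF-β and 0.000171% and 0.000183% under TGF-β+2APB, and Apoa1 was at 0 in replicate 1 of the last group. The 5 endothelial markers summed to between 9.83 and 51.3 normalized counts in each library. The summed leukocyte markers were between 245 and 629 normalized counts in 5 libraries and at 2332 in replicate 2 of TGF-β+2APB, with Cd3e at 0 in the other 5. The hepatocyte markers fell in the same comparisons as the KLF changes below, and their part in those changes was not tested. In RNA from whole cultures, fewer cells of a type and less RNA per cell cannot be told apart.

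All 10 genes were abundant enough for the test, their means reaching 20 normalized counts (counts scaled to the mean library by TMM factors). Under TGF-β against DMSO, 7 of the 10 genes were called at a false discovery rate (FDR) of 0.05 or less, 4 higher and 3 lower. Over all 13353 genes tested 41.5% were called, 21.8% higher and 19.7% lower. At the step from TGF-β to TGF-β+2APB, called the 2APB step below, 3 genes passed, 1 higher and 2 lower, where 17.5% of all genes were called, 6.58% higher and 10.9% lower. Between DMSO and both agents 7 genes passed, 5 of them higher and 2 lower under the agents, beside 52.8% of all genes, 25.6% higher and 27.2% lower. The size of the log2 fold change had a median of 0.62, 0.35 and 0.86 over the 10 genes in these comparisons, beside 0.35, 0.23 and 0.44 over all genes tested. The 3 comparisons share libraries pairwise and are not independent of each other.

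**Figure D1:**
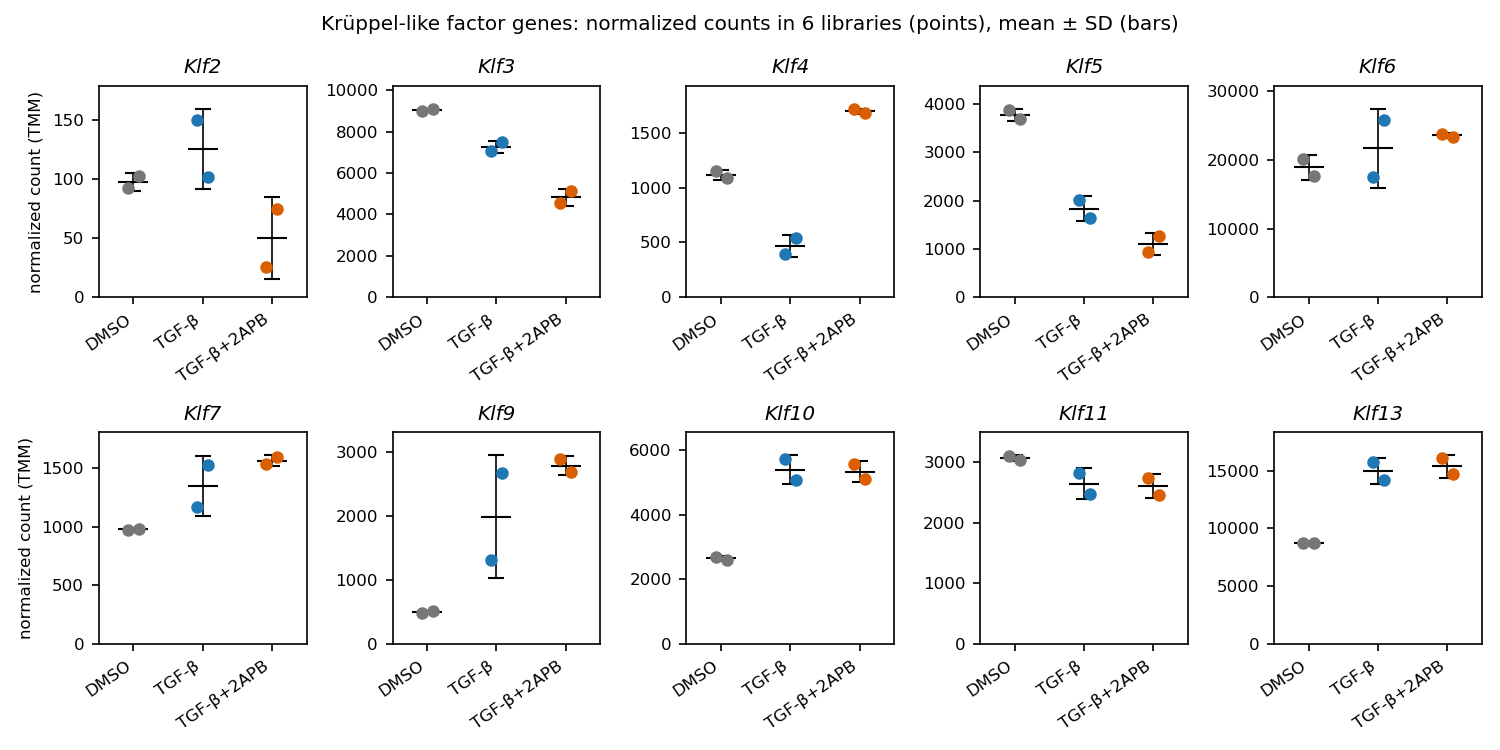
Normalized counts (vertical axes, linear, from 0) of the 10 KLF genes in each of the 6 libraries, with points for libraries and black bars for the mean ± SD of 2 replicates. Klf4 falls from above 1000 in DMSO to 399 and 542 under TGF-β and stands at 1713 and 1679 under TGF-β+2APB, whereas Klf5 and Klf3 step down in each group and Klf10 and Klf13 rise once.

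Klf4, a factor of differentiated epithelia that also serves to reprogram cells to pluripotency, was the only one of the 10 genes called in opposite directions at the TGF-β step and at the 2APB step. Its normalized counts were 1148 and 1087 in DMSO, 399 and 542 under TGF-β, and 1713 and 1679 under TGF-β+2APB. The ranges of the 3 groups did not overlap, and the highest level was with both agents. Klf4 fell by 1.25 on the log2 scale under TGF-β (SE 0.16, edgeR FDR = 0.00208) and rose by 1.85 at the 2APB step (SE 0.16, edgeR FDR = 0.00375). Both calls held in 13 other settings of the fit and also with correction for GC content. Against DMSO the level under TGF-β+2APB was higher by 0.60 on the log2 scale (SE 0.15, edgeR FDR = 0.0191). This last call was lost without DMSO replicate 1 (edgeR FDR = 0.0845), without DMSO replicate 2 (edgeR FDR = 0.114), and without replicate 1 (edgeR FDR = 0.0707) or replicate 2 (edgeR FDR = 0.0502) of TGF-β+2APB, while the fold change stayed between 0.56 and 0.64.

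The Klf4 gene lies on chromosome 4 of GRCm38 from 55527143 to 55532466 on the minus strand and shares no exon base with another gene. The bases before its transcription start are shown, and they carry 4 matches to the GC box GGGCGG, the first pair of which overlaps. KLF and SP proteins bind this sequence, and it was also found before other KLF genes described here. For comparison the windows before Klf9 and Klf13, a pair of genes that rose under TGF-β, follow. Each sequence holds the 250 bases before the RefSeq start, is written 5′ to 3′ on the strand of the gene, and has matches to GGGCGG or CACCC on either strand in capitals.
Klf4, chr4:55532476-55532725, minus strand: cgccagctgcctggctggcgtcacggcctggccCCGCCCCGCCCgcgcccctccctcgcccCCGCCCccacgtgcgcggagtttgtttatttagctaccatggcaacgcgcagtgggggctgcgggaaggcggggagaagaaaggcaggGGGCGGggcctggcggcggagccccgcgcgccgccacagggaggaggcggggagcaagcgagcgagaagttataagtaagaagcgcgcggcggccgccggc
Klf9, chr19:23140976-23141225, plus strand: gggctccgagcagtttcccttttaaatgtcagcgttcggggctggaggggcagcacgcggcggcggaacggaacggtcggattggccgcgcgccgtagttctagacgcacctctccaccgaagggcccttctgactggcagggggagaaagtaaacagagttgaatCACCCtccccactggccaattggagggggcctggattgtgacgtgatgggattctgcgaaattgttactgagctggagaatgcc
Klf13, chr7:63938916-63939165, minus strand: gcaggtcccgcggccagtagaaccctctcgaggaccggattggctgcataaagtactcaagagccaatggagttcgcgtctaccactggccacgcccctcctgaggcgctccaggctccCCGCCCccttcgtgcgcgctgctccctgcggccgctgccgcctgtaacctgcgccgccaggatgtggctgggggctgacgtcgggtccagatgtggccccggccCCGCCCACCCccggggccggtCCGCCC

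The windows differ in composition. The Klf4 window was 74.0% G or C with 4 GC boxes and no CACCC, the Klf13 window 71.6% with 3 GC boxes and 1 CACCC that overlaps one of them, and the Klf9 window 59.6% with no GC box and 1 CACCC. Among 32851 RefSeq promoter windows of the same length, 32.7% held GGGCGG and 52.0% held CACCC on either strand. RefSeq windows (GRCm38.p6) were matched for 8 of the 10 genes, not for Klf5 and Klf10, and were cut where the annotation places an exon of the gene. The cut windows of Klf2, Klf3, Klf6, Klf7 and Klf11 had 221, 117, 243, 148 and 153 bases. In the same order they held 2, 5, 1, 1 and 2 GC boxes, so that of the 8 windows only that of Klf9 held none. The E-box CAGGTG, the cAMP response element TGACGTCA and the palindromic SMAD box GTCTAGAC were also searched on both strands and matched in none of the 8 windows. Over all windows, which were not cut and held 250 bases, the shares were 17.2%, 1.55% and 0.167%. The cut windows had fewer bases in which to match. A match is a description of the letters, not evidence of binding.

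The 5 tested genes whose mean-centred log2 CPM came nearest to Klf4 over the 6 libraries were Plin4, Hr, Kcnk1, Clcn1 and Hs3st3a1, with root mean square differences of 0.19, 0.22, 0.23, 0.25 and 0.27. Hr, which encodes the nuclear corepressor Hairless, was the most abundant, with 1552 and 1536 deposited counts in DMSO, 500 and 496 under TGF-β and 2574 and 2386 under TGF-β+2APB. Plin4, which encodes a lipid droplet coat protein, had 50 and 50, 22 and 30, and 96 and 72 counts. The other 3 genes had 72 counts or fewer in every library, so that their profiles rest on few reads. Of the other KLF genes chosen for this description, none was near. The closest of them, Klf6, ranked 2759 among 13352 genes with a root mean square difference of 0.75. Klf2, the farthest of them, ranked 12098 with 1.45. The ranks of Klf1, Klf8, Klf12, Klf15 and Klf16 were not looked up. Klf8, at 4 to 80 counts, moved in the same directions as Klf4 without being called. Its log2 fold change was -1.55 under TGF-β (edgeR FDR = 0.151) and 2.33 at the 2APB step (edgeR FDR = 0.0897).

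**Figure D2:**
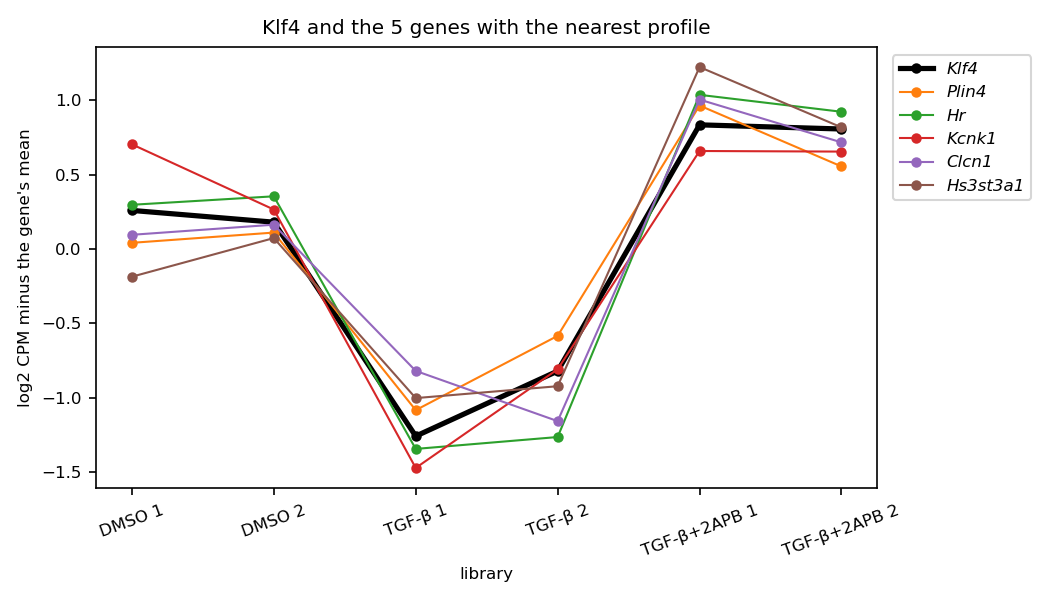
Log2 CPM minus the mean of the gene (vertical axis) in the 6 libraries (horizontal axis) for Klf4, the thick black line, and the 5 genes with the nearest profile. All 6 genes are lowest in the TGF-β libraries and high in TGF-β+2APB, and the root mean square distance to Klf4 runs from 0.19 for Plin4 to 0.27 for Hs3st3a1.

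Klf5, which drives proliferation in crypt and basal epithelial cells and often acts against Klf4, fell at both steps. Its normalized counts were 3872 and 3696 in DMSO, 2022 and 1652 under TGF-β, and 948 and 1265 under TGF-β+2APB, without overlap between groups. The log2 fold change was -1.04 under TGF-β (SE 0.17, edgeR FDR = 0.00478), -0.73 at the 2APB step (SE 0.17, edgeR FDR = 0.036), and -1.77 from DMSO to both agents (SE 0.17, edgeR FDR = 0.000504). The call at the 2APB step held in 8 of these 13 settings. Among the settings that lost it were the fit of only the 4 libraries compared (edgeR FDR = 0.0937), and those without DMSO replicate 1 (0.0937), DMSO replicate 2 (0.0942) or TGF-β+2APB replicate 1, where the log2 fold change was -0.57 (edgeR FDR = 0.133). The other comparisons of Klf5 kept their calls in the same 13 settings.

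Because Klf4 and Klf5 moved apart at the 2APB step, their ratio within each library was computed after these values had been seen. Counts per kb of exon gave a Klf4 to Klf5 ratio of 0.506 and 0.502 in DMSO, 0.337 and 0.559 under TGF-β, and 3.08 and 2.26 under TGF-β+2APB. The DMSO ratios lay inside the range of the TGF-β replicates, whereas both libraries with 2APB were above all others. A ratio within a library does not depend on the scaling between libraries, and it shows unequal change of the pair only.

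Klf2, an endothelial and lymphocyte factor that responds to shear stress, was the least abundant of the 10 genes. Its deposited counts were 94 and 100 in DMSO, 154 and 98 under TGF-β, and 26 and 76 under TGF-β+2APB. The DMSO and TGF-β libraries overlapped, and both libraries with 2APB were below the other 4. No comparison of Klf2 was called. The log2 fold change was 0.36 under TGF-β (SE 0.52, edgeR FDR = 0.609) and -1.32 at the 2APB step (SE 0.53, edgeR FDR = 0.147). Without replicate 2 of TGF-β+2APB, the library with the high leukocyte markers, the 2APB step was -2.29 (edgeR FDR = 0.0316) and the change from DMSO went from -0.96 (SE 0.53, edgeR FDR = 0.182) to -1.90 (edgeR FDR = 0.0166). In that library Ptprc and Csf1r had 752 and 982 counts, against 36 and 170 in the other replicate, and their part in the Klf2 count was not tested.

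Klf6, a broadly expressed factor that responds to tissue injury, had the highest counts of the family in every library. The normalized counts were 20170 and 17650 in DMSO, 17570 and 25760 under TGF-β, and 23840 and 23310 under TGF-β+2APB. The TGF-β replicates spanned the values of both other groups. The log2 fold changes were 0.20 under TGF-β (SE 0.18, edgeR FDR = 0.434), 0.12 at the 2APB step (SE 0.18, edgeR FDR = 0.683) and 0.32 against DMSO (SE 0.18, edgeR FDR = 0.198). Each TGF-β replicate decided the sign of one step, as the change under TGF-β was -0.11 without replicate 2 and 0.45 without replicate 1 (edgeR FDR = 0.00927), and the 2APB step was 0.42 (edgeR FDR = 0.0191) and -0.13 in the same order. Against DMSO, Klf6 was called without either TGF-β replicate (edgeR FDR = 0.0104 and 0.0126 without replicates 1 and 2), in the fit of the 4 libraries compared (0.0139) and with correction for GC content (0.0233).

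Klf7, a close relative of Klf6 with known roles in neurons, had 975 and 983 normalized counts in DMSO, 1165 and 1525 under TGF-β, and 1530 and 1596 under TGF-β+2APB. Its levels were higher in each later group, without overlap. The log2 fold change was 0.46 under TGF-β (SE 0.14, edgeR FDR = 0.0451), 0.22 at the 2APB step (SE 0.14, edgeR FDR = 0.33) and 0.68 against DMSO (SE 0.14, edgeR FDR = 0.0093). The TGF-β call was close to the threshold and held in 5 of these 13 settings, with an FDR between 0.00174 and 0.191. Among the settings that lost it were library size scaling (edgeR FDR = 0.0687), no filter (0.0612), the fit of the 4 libraries compared (0.06), and the fits without DMSO replicate 1 (0.191) or 2 (0.178) or TGF-β+2APB replicate 1 (0.0633) or 2 (0.0604). Without TGF-β replicate 2 the 2APB step was 0.42 and called (edgeR FDR = 0.0127). The call against DMSO was lost without DMSO replicate 1 (edgeR FDR = 0.0632) or 2 (0.0605). Exon bases on the opposite strand belong to Gm26649 and Gm13748, 3200 in all of the 8131 of Klf7, and since the strand setting of the counting is not given in the sources used here, reads of these genes cannot be told apart from those of Klf7.

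Klf3, which represses genes through the co-repressor CtBP, fell at both steps like Klf5 but by less. The normalized counts were 8978 and 9088 in DMSO, 7067 and 7485 under TGF-β, and 4538 and 5126 under TGF-β+2APB, again without overlap. The change was -0.31 on the log2 scale under TGF-β (SE 0.09, edgeR FDR = 0.0339), -0.59 at the 2APB step (SE 0.09, edgeR FDR = 0.0118) and -0.90 from DMSO to both agents (SE 0.09, edgeR FDR = 0.000537). The TGF-β call held in 8 of these 13 settings and was lost in the fit of the 4 libraries compared (edgeR FDR = 0.07) and without DMSO replicate 1 (0.169), DMSO replicate 2 (0.182) or TGF-β+2APB replicate 1 (0.0699) or 2 (0.0691). The call at the 2APB step was lost without DMSO replicate 1 (0.0525) or 2 (0.0531) or TGF-β+2APB replicate 1 (0.0647), and the fold change there stayed between -0.68 and -0.54. Gm20033 on the opposite strand shares 404 of the 11243 exon bases of Klf3.

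The 4 factors that act through the co-repressor SIN3 were Klf9, Klf10, Klf11 and Klf13. Under TGF-β 3 of these 4 were called higher, where 21.8% of all genes tested were, a count from which nothing is read because the genes were chosen with it known. Klf9, which glucocorticoid and thyroid hormones induce, had the largest rise of the 10 genes. Its normalized counts were 484 and 506 in DMSO, 1305 and 2667 under TGF-β, and 2894 and 2679 under TGF-β+2APB. Every treated library was at least 1305 and above both DMSO libraries, but the TGF-β replicates lay far apart and replicate 2 nearly reached the libraries with 2APB. Klf9 rose by 2.00 on the log2 scale under TGF-β (SE 0.33, edgeR FDR = 0.00542) and stood higher by 2.49 with both agents (SE 0.33, edgeR FDR = 0.00176). The rise under TGF-β was 1.40 without TGF-β replicate 2 and 2.44 without replicate 1. The 2APB step was 0.49 (SE 0.31, edgeR FDR = 0.33), and it was 0.07 without TGF-β replicate 1 but 1.09 and called without TGF-β replicate 2 (edgeR FDR = 0.00221).

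Klf10, the TGF-β-inducible early gene first described in osteoblasts, had 2699 and 2597 normalized counts in DMSO, 5705 and 5076 under TGF-β, and 5553 and 5100 under TGF-β+2APB. The treated groups overlapped with each other and stood clear of DMSO. Klf10 rose by 1.03 under TGF-β (log2 scale, SE 0.09, edgeR FDR = 0.000645), and the 2APB step was -0.02 (SE 0.09, edgeR FDR = 0.914). The sign of that step turned with RLE factors, with DESeq2, with correction for GC content and without TGF-β replicate 1 or TGF-β+2APB replicate 2, and its values stayed between -0.11 and 0.07. Against DMSO the level with both agents was higher by 1.008 (SE 0.09, edgeR FDR = 0.000408).

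Klf13, known as a regulator of the chemokine RANTES in T cells, behaved like Klf10 with a smaller change. Its normalized counts were 8748 and 8700 in DMSO, 15790 and 14200 under TGF-β, and 16070 and 14690 under TGF-β+2APB. It rose by 0.78 under TGF-β (log2 scale, SE 0.09, edgeR FDR = 0.00141), and with both agents it was higher than in DMSO by 0.82 (SE 0.09, edgeR FDR = 0.000753). The 2APB step was 0.04 (SE 0.09, edgeR FDR = 0.797), with values between -0.06 and 0.12 over the alternatives.

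Klf11, the other gene first described as inducible by TGF-β, had 3098 and 3029 normalized counts in DMSO, 2819 and 2463 under TGF-β, and 2740 and 2462 under TGF-β+2APB. All 4 treated libraries were below both DMSO libraries. The change was -0.21 under TGF-β (SE 0.10, edgeR FDR = 0.133), -0.02 at the 2APB step (SE 0.10, edgeR FDR = 0.897) and -0.24 against DMSO (SE 0.10, edgeR FDR = 0.0902), on the log2 scale. The TGF-β change was called without TGF-β replicate 1 (-0.31, edgeR FDR = 0.0344) and with correction for GC content (-0.25, edgeR FDR = 0.0467). Against DMSO, Klf11 was called with library size scaling (edgeR FDR = 0.0291), in the fit of the 4 libraries compared (0.0251) and without TGF-β replicate 1 (0.0353) or 2 (0.0226).

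**Figure D3:**
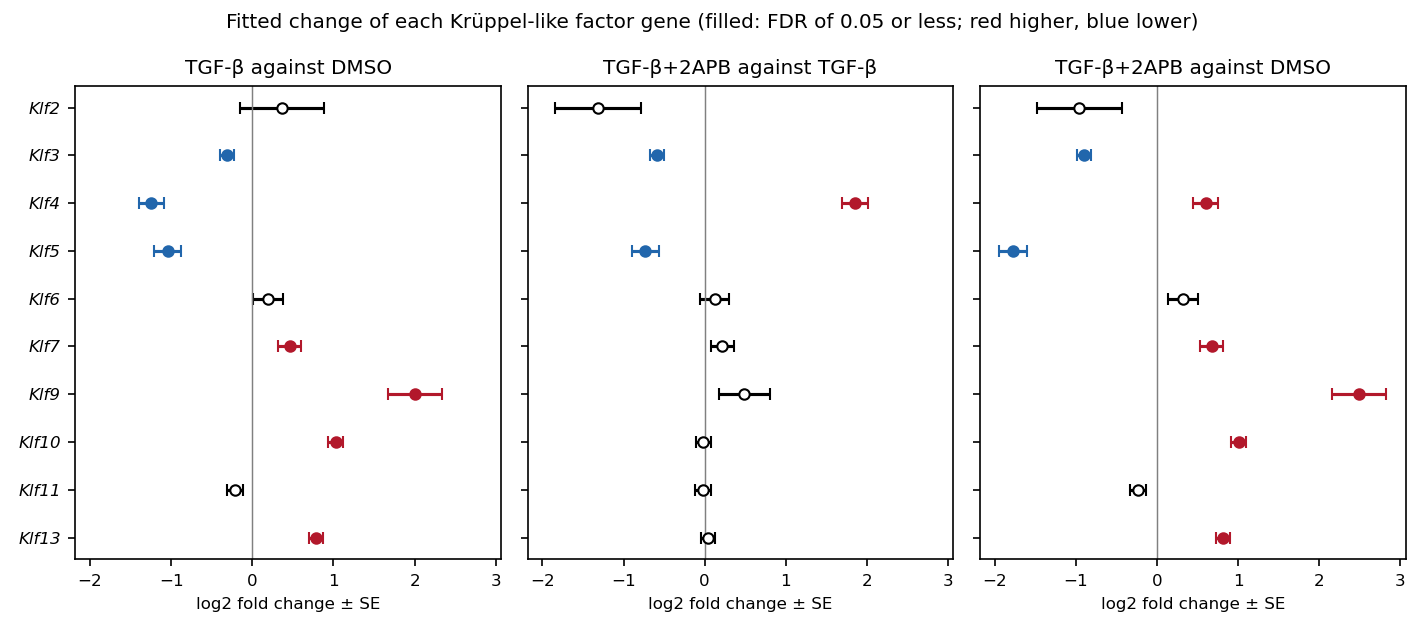
Fitted log2 fold change ± SE (horizontal axes) of each KLF gene in the 3 comparisons, with filled red points for genes called higher, filled blue points for genes called lower and open points for genes not called by edgeR. Under TGF-β 4 genes are called higher and 3 lower, and at the 2APB step only Klf4, Klf3 and Klf5 are called, Klf4 upward.

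The replicates of the TGF-β group differed most for Klf9, Klf6, Klf2, Klf4 and Klf7, by log2 differences of 1.03, 0.55, -0.55, 0.44 and 0.39 (replicate 2 minus replicate 1). In DMSO the differences of the 10 genes lay between -0.19 for Klf6 and 0.16 for Klf2. Under TGF-β+2APB they were 1.47 for Klf2 and 0.42 for Klf5, and between -0.15 and 0.18 for the other 8 genes. Over all genes tested the SD of this difference was 0.30 in DMSO, 0.53 under TGF-β and 0.73 under TGF-β+2APB. The difference between the TGF-β replicates followed the GC content of the transcript, with a Spearman rho of -0.553 across 12693 genes, which are not independent replicates, beside -0.144 in DMSO and 0.255 under TGF-β+2APB. With a correction for GC content Klf9 rose by 1.98 under TGF-β (SE 0.32, edgeR FDR = 0.00416) and the 2APB step was 0.53 (SE 0.31, edgeR FDR = 0.242).

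Levels of different genes were compared as normalized counts per kb of annotated exon. In DMSO the order was Klf6 at 4310 ± 405 (SD, n = 2), Klf13 at 1160 ± 4.55 (SD, n = 2), Klf3 at 803 ± 6.92 (SD, n = 2), Klf5 at 728 ± 23.9 (SD, n = 2) and Klf11 at 706 ± 11.2 (SD, n = 2), followed by Klf10, Klf4, Klf7, Klf9 and Klf2 at 634, 366, 120, 103 and 53.0. Of the neighbours in this order, Klf5 and Klf11 overlapped in their replicates and the other pairs did not. Under TGF-β, Klf10 at 1290 ± 107 (SD, n = 2) took the third place and Klf4 at 154 ± 33.0 (SD, n = 2) was the ninth, overlapping with Klf7 at 165 ± 31.3 (SD, n = 2). Under TGF-β+2APB, Klf9 at 579 ± 31.6 (SD, n = 2) and Klf4 at 556 ± 7.77 (SD, n = 2) overlapped and stood above Klf3 at 430 ± 37.0 (SD, n = 2) and Klf5 at 213 ± 43.0 (SD, n = 2). Klf6 and Klf13 kept the first and second place and Klf2 the last in all groups. These orders depend on the exon length taken from the annotation, which need not be that of the transcripts made in these cells.

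Summed per kb over the 10 genes, the normalized counts were 9304 and 8652 in DMSO, 9757 and 11490 under TGF-β, and 11480 and 11090 under TGF-β+2APB. Klf6 held between 41.0% and 51.1% of this sum in every library. The share of Klf5 was 8.0% and 8.21% in DMSO, 3.98% and 2.76% under TGF-β, and 1.59% and 2.19% with both agents. Of the 4 SIN3-linked genes, Klf9 took 1.08% and 1.22% in DMSO against 5.24% and 5.02% under TGF-β+2APB, and Klf11 took 7.67% and 8.07% against 5.50% and 5.12%. The share of Klf4 was 4.05% and 4.12% in DMSO, 1.34% and 1.55% under TGF-β, and 4.89% and 4.97% under TGF-β+2APB.

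**Figure D4:**
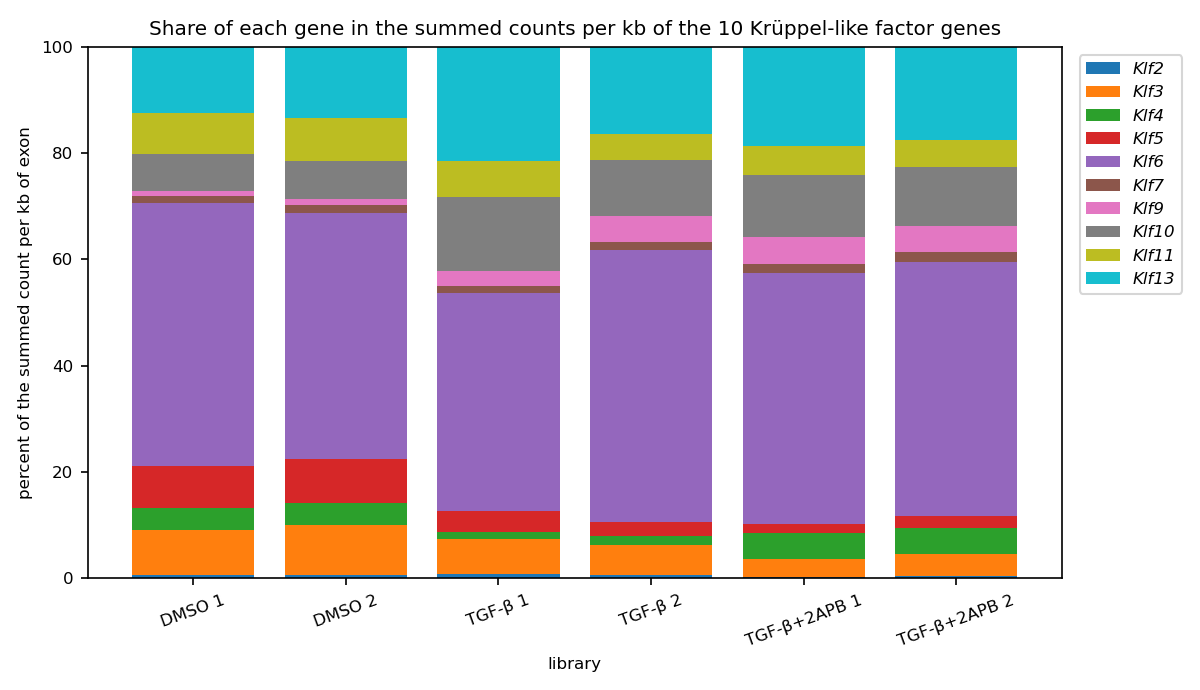
Share of each of the 10 genes (stacked colours, vertical axis in percent from 0 to 100) in the summed counts per kb of exon, for each library (horizontal axis). Klf6 holds 41.0% to 51.1% in all 6 libraries, the bands of Klf9, Klf10 and Klf13 widen in the 4 treated libraries, and that of Klf5 narrows.

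Of 16 other genes of the KLF and SP families, 14 were in the table and 11 were abundant enough for the test. Under TGF-β 2 were called higher and 2 lower, beside 41.5% of all genes called. With halved counts 3 were called, the mean of Klf15 then being below the filter. The median log2 fold change of the list was -0.36 beside -0.01 over all genes. Sp8, a developmental regulator, had 56 and 66 deposited counts in DMSO, 264 and 274 under TGF-β, and 916 and 792 under TGF-β+2APB. It rose by 2.13 on the log2 scale under TGF-β (SE 0.18, edgeR FDR = 0.00054) and then by 1.64 more at the 2APB step (SE 0.17, edgeR FDR = 0.00501). Klf12, a CtBP-binding repressor like Klf3, rose by 1.06 under TGF-β (SE 0.32, edgeR FDR = 0.0454), whereas Klf15, a metabolic regulator in liver and muscle, fell by 3.23 (SE 0.46, edgeR FDR = 0.00326) from 54 and 78 counts to 8 and 6. Sp6, known from tooth and skin, fell by 1.11 under TGF-β (SE 0.32, edgeR FDR = 0.0382) and rose by 1.28 at the 2APB step (SE 0.32, edgeR FDR = 0.0469), at counts of 22 to 68. Sp8 and Sp6 were the 2 genes of this list called at the 2APB step, where 17.5% of all genes were called. The count there was 1 without the filter, in the fit of the 4 libraries compared and without any one DMSO or TGF-β+2APB library, and 8 without TGF-β replicate 2. Under TGF-β the 4 calls became 2 and 1 without DMSO replicates 1 and 2 and 8 without TGF-β replicate 2. The ubiquitous Sp1 changed by -0.13 under TGF-β (SE 0.07, edgeR FDR = 0.179) and by 0.02 at the 2APB step (SE 0.07, edgeR FDR = 0.824).

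**Figure D5:**
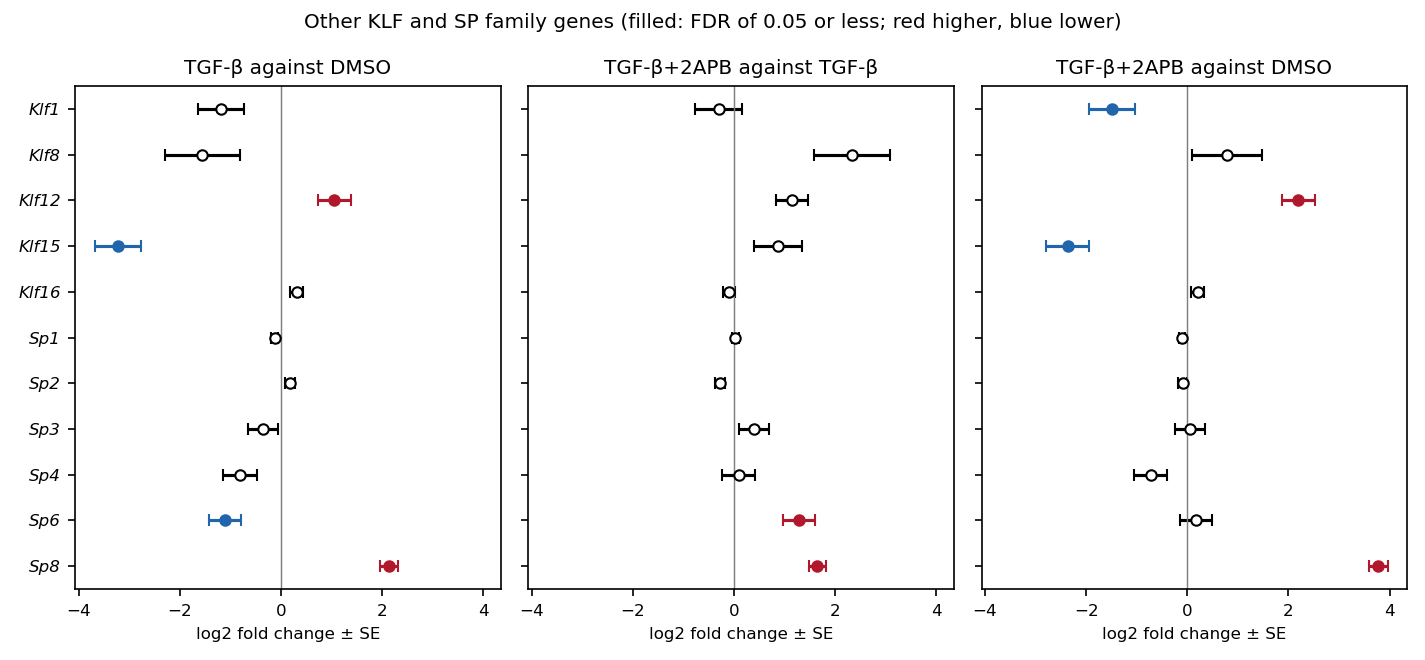
Fitted log2 fold change ± SE (horizontal axes) of the 11 other KLF and SP genes with enough counts, with filled red and blue points for genes called higher and lower by edgeR and open points for genes not called. Sp8 is called higher in all 3 comparisons, and Sp6 is called lower under TGF-β and higher at the 2APB step.

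Of 15 genes for protein partners of KLF factors, all tested, 3 were called higher and 2 lower under TGF-β, beside 41.5% of all genes called, with a median log2 fold change of 0.07. The 5 calls became 1 without DMSO replicate 1 or 2, 7 without TGF-β replicate 1 and 11 without TGF-β replicate 2. Smurf1, a ubiquitin ligase for Klf2, rose by 0.49 (SE 0.10, edgeR FDR = 0.0134), and Sin3a, the scaffold bound by Klf9, Klf10, Klf11 and Klf13, rose by 0.43 (SE 0.09, edgeR FDR = 0.0123). The acetyltransferase genes Kat2b and Ep300 fell by 0.63 (SE 0.07, edgeR FDR = 0.0015) and by 0.34 (SE 0.07, edgeR FDR = 0.0118). At the 2APB step Sin3b rose by 0.43 (SE 0.09, edgeR FDR = 0.0298) and Kat2b fell by 0.42 (SE 0.07, edgeR FDR = 0.0168). These were the 2 partner genes called there, beside 17.5% of all genes. Neither call at the 2APB step held in the fit of the 4 libraries compared or without any one DMSO or TGF-β+2APB library (0 of 15 genes called), and 5 and 7 genes were called without TGF-β replicates 1 and 2. For the CtBP genes, partners of Klf3, the log2 change under TGF-β was 0.07 for Ctbp1 (edgeR FDR = 0.563) and -0.18 for Ctbp2 (edgeR FDR = 0.367).

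Of 12 genes known to act upstream of KLF genes, 11 were tested, and 3 were called higher and 3 lower under TGF-β, beside 41.5% of all genes called, with a median of 0.07. The 6 calls became 3 without DMSO replicate 1 or 2 and 9 without TGF-β replicate 2. Smad3, which carries the TGF-β signal to the nucleus, rose by 0.70 under TGF-β (SE 0.13, edgeR FDR = 0.00936) and fell by 0.63 at the 2APB step (SE 0.13, edgeR FDR = 0.0301), the reverse of the order in Klf4. Foxo1, which activates Klf2 in lymphocytes, fell by 0.50 under TGF-β (SE 0.07, edgeR FDR = 0.00345) and rose by 0.55 at the 2APB step (SE 0.07, edgeR FDR = 0.00869). Mef2d, an activator of Klf2 and Klf4 downstream of the kinase encoded by Mapk7, rose by 0.43 under TGF-β (SE 0.08, edgeR FDR = 0.00863). The immediate early gene Egr1 and the gene Foxo3 fell by 2.78 (SE 0.32, edgeR FDR = 0.00163) and by 0.79 (SE 0.10, edgeR FDR = 0.00188). Smad3 and Foxo1 were the 2 genes of this list called at the 2APB step, where 17.5% of all genes were called. Neither was called without TGF-β+2APB replicate 1 or 2 (0 of the list), 1 gene of the list was called in the fit of the 4 libraries compared or without DMSO replicate 1 or 2, and 4 and 5 were called without TGF-β replicates 1 and 2.

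Of 14 textbook targets of KLF factors, 9 were tested. Under TGF-β 5 were called higher and 3 lower, beside 41.5% of all genes called, 21.8% higher and 19.7% lower. Of the listed targets, Pdgfa, a target of Klf5, rose by 2.92 (SE 0.20, edgeR FDR = 0.000287) and Plau, a target of Klf6, by 2.41 (SE 0.17, edgeR FDR = 0.000306). Krt19, a keratin gene that Klf4 activates, fell by 2.04 (SE 0.35, edgeR FDR = 0.00659) and Cdkn1a, a cell cycle inhibitor gene that Klf4 and Klf6 activate, fell by 0.93 (SE 0.15, edgeR FDR = 0.00506). At the 2APB step, where Klf4 rose, Krt19 fell by 2.05 (SE 0.36, edgeR FDR = 0.0174) and Cdkn1a changed by 0.19 (SE 0.15, edgeR FDR = 0.42). Cdh1, another gene activated by Klf4, fell by 0.78 under TGF-β (SE 0.13, edgeR FDR = 0.0055). Its change at the 2APB step was -0.48 (SE 0.13, edgeR FDR = 0.057). The paper treats Krt19 and Cdh1 as targets of Snai1. Smad7, which Klf10 represses, rose by 1.002 under TGF-β (SE 0.08, edgeR FDR = 0.000405), where Klf10 also rose. Plau rose by 0.76 (SE 0.16, edgeR FDR = 0.0282) and Smad7 by 0.39 (SE 0.08, edgeR FDR = 0.0233) at the 2APB step. In all, 3 genes of the list were called at this step, beside 17.5% of all genes. The 3 calls of this list at the 2APB step became 0 in the fit of the 4 libraries compared and without DMSO replicate 1 or 2, 1 without TGF-β+2APB replicate 1 or 2, and 6 without TGF-β replicate 2.

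Of the marker lists, 2 of the epithelial genes tested were called higher under TGF-β (Krt8 and Krt18) and 3 lower, 3 of 4 mesenchymal genes higher (Vim, Fn1 and Pdgfrb), 4 of 4 hepatocyte genes lower and none of 3 leukocyte genes by edgeR or DESeq2 (0 at an unadjusted p under 0.05). In the fit of the 4 libraries compared and without TGF-β+2APB replicate 1 or 2, however, 2 leukocyte genes were called. Each of the 5 endothelial genes was too low to be tested. Over all genes tested, 41.5% were called under TGF-β and 17.5% at the 2APB step. At the 2APB step 2 epithelial genes were called higher and 1 lower, 1 mesenchymal gene higher and 1 lower, 1 hepatocyte gene lower and no leukocyte gene by edgeR (1 at an unadjusted p under 0.05, and 1 by DESeq2). Without TGF-β+2APB replicate 1, 3 leukocyte genes were called, and without TGF-β replicate 2, 4 hepatocyte genes.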

How the data were processed

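The authors sequenced oligo-dT selected RNA as single-end reads, aligned them with TopHat2 2.0.13 (version from the submitters' processing notes) and counted them per gene with featureCounts. The deposited values are raw counts, not scaled between libraries. The submitters' notes name mm10, the methods text hg19; annotation and strand setting are not given in the sources used here. A spreadsheet had turned 25 names into dates, and these entries were kept unnamed in the fits. Every value was even, and the counts, 71840570 to 79473182 per library, exceed the average number of reads per sample that the paper states. Counts thus outnumber reads, and counting error is larger than the counts imply. Low counts in the text stand for fewer reads than their values. Halving the counts left the SE of Klf4 under TGF-β at 0.154, from 0.155.

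Counts were scaled by TMM and the 3 groups fitted in 1 model in edgeR 4.0.16 (R 4.3.3), without covariates, keeping genes whose mean reached 20 normalized counts. Pairs of groups were compared by the quasi-likelihood F-test, and Benjamini-Hochberg FDR values of 0.05 or less over all genes tested were called. SE was taken as |log2 fold change| over the root of F. The paper calls the replicates biological. The p-values set each change against a spread between replicates that the 3 groups share, with 2 libraries per group. That spread is also drawn toward the spread of other genes. Leaving out a library of any group can therefore change the calls of every comparison. Log2 CPM used a prior count of 2.

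The members and lists were chosen with earlier results of these data known. All members are named, as are, per list, the 2 largest called rises and falls at the TGF-β and 2APB steps and genes whose role bears on a member, and the 5 genes nearest to Klf4 in mean-centred log2 CPM. Alternatives were DESeq2 1.42.0 without prior, RLE factors, library size scaling, no filter, a replicate block, fits of 4 libraries, halved counts, an FDR of 0.01 and each library left out. An exchanged block and a correction for GC content (lowess, span 0.5) were added after the data had been seen. The procedure was tested on simulated data. Positions and exon lengths came from GENCODE M21 (GRCm38), promoters from RefSeq, and plots from matplotlib 3.10.9.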

Additional observations from a re-analysis of the deposited data

How the results depend on the processing

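Over all alternatives the number of KLF genes called was 5 to 9 in each comparison against DMSO, where 7 were called. At the 2APB step 3 were called, 1 at an FDR of 0.01, and 1 to 6 with a library left out (6 without TGF-β replicate 2, 1 without either DMSO library or TGF-β+2APB replicate 1). The number called over all genes also changed between the settings, as given below, for the counts here and for those of the lists above. At the 2APB step the change of Klf10 turned to 0.001 with RLE factors and with DESeq2. With correction for GC content it turned to 0.017, where that of Klf11 turned to 0.02. With a library left out it ran from -0.111 to 0.072 for Klf10, from -0.132 to 0.081 for Klf11, from -0.06 to 0.118 for Klf13 and from -0.126 to 0.424 for Klf6, and under TGF-β Klf6 ran from -0.106 to 0.453. The cause was not tested.

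The replicate differences correlated at 0.156 for DMSO and TGF-β, -0.479 for DMSO and TGF-β+2APB, and -0.247 for TGF-β and TGF-β+2APB. These values do not show whether the replicate numbers pair the libraries. The replicate differences also followed GC content, as given above, and its part in the correlations was not tested. Both negative correlations involve TGF-β+2APB and turn positive with its numbers exchanged. Whether libraries share a batch was not tested. With the replicate block 6, 2 and 7 KLF genes were called, for TGF-β against DMSO, the 2APB step and TGF-β+2APB against DMSO, with Klf7 (edgeR FDR = 0.056) and Klf5 (edgeR FDR = 0.0825) lost in the first and second. With the TGF-β+2APB numbers exchanged, 7, 3 and 7 KLF genes were called, and 5706, 2465 and 7232 genes in all, beside 5548, 2334 and 7044 without a block.

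Over all genes, the 2334 called at the 2APB step became 3645 with DESeq2, 1342 with the replicate block, 860 in a fit of 4 libraries, 601 at an FDR of 0.01, 3573 with correction for GC content and 834 to 5405 with a library left out. For TGF-β against DMSO 3369 genes were called at an FDR of 0.01, and 2753 to 7641 with a library left out. For TGF-β+2APB against DMSO this range was 4355 to 9006. Leaving out a library leaves 1 sample in its group, assumed to vary like the others. With halved counts no KLF gene gained or lost a call.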
